A study of Homo sapiens with 9 samples.

Results

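Genes that write, read or remove repressive chromatin marks were followed as a set of 39 listed genes in IMR90 cells, out of 64253 gene identifiers counted. IMR90 is a line of human fetal lung fibroblasts with a limited number of divisions in culture. The members were taken by symbol, and where a symbol had several identifiers the one with most reads was kept. Reads were found for 37 of the 39, and all 37 passed the filter on low counts. RING1 and EHMT2 had 0 reads in all 9 libraries under each of their 6 and 7 identifiers and are not described further. Reads that fit several copies of a gene are not counted, so this 0 does not show that the genes were silent.

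RNA sequencing had been done on 3 libraries of each of 3 groups. The control group received the pLKO.1 lentiviral vector, which is empty in the sample labels and carries GFP in the treatment protocol. The shRRM2 group received a hairpin against RRM2, the small subunit of the enzyme that makes deoxyribonucleotides, and the labels call these cells senescent. The shRRM2/shp16 group received that hairpin and another against p16, the product of CDKN2A that holds back cyclin-dependent kinases, and by the labels it had bypassed senescence. Per the treatment protocol, infection was in 2 rounds 24 hours apart, with the vector or the RRM2 hairpin first and the vector or the p16 hairpin after it. All cells had been used at population doubling 30, kept in 2% oxygen and selected for 7 days in 3 ug/mL puromycin. No group had the p16 hairpin alone, so its effect can be read only in cells that also carry the RRM2 hairpin. Nothing in the labels says that replicates a, b and c came from separate cultures, and p-values then measure only the spread between these libraries, which may be technical.

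Polycomb complexes repress developmental genes: PRC2 places methyl groups on lysine 27 of histone H3, and PRC1 reads that mark through CBX proteins and ubiquitinates histone H2A. DNA methylation at CpG sites is copied onto new strands after replication by DNMT1, which UHRF1 brings to hemimethylated sites, while TET enzymes oxidise the methyl group. Constitutive heterochromatin carries methylated lysine 9 of histone H3, bound by HP1 proteins, and histone chaperones rebuild nucleosomes behind the replication fork. In fibroblasts, Polycomb is known for holding the CDKN2A locus silent, and several of these genes are known to be transcribed mainly in dividing cells.

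The targeted genes were checked first. RRM2 was at 481, 491 and 484 CPM (counts per library scaled to a common size) in control a, b and c, 59.98, 63.2 and 63.2 CPM in the shRRM2 libraries and 181, 175 and 176 CPM in the shRRM2/shp16 libraries. The double-hairpin cells thus held more RRM2 RNA than the shRRM2 cells, with a log2 fold change of 1.51 ± 0.035 (SE, edgeR adjusted p = 7.9e-34). The second hairpin and the higher RRM2 level cannot be told apart in any difference between those groups. CDKN2A, whose counts also cover the ARF transcript, was at 5.95, 6.15 and 5.96 CPM in the controls, 6.79, 6.75 and 5.97 CPM with shRRM2 and 4.33, 3.93 and 4.57 CPM with both hairpins. It was lower with both hairpins than with shRRM2, with a log2 fold change of -0.60 ± 0.13 (SE, edgeR adjusted p = 7e-05), and its difference between shRRM2 and control was 0.11 ± 0.12 (SE, edgeR adjusted p = 0.431).

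The 24 markers of cycling cells were read beside the set. Their summed level was 3795 to 3847 CPM in the controls, 1441 to 1476 CPM with shRRM2 and 1674 to 1705 CPM with both hairpins. All 24 were lower than control in both hairpin groups (against 31.8% of all genes with shRRM2 and 32.4% with both hairpins). MKI67, a marker of dividing cells, had means of 1036 ± 14.6, 322 ± 15.99 and 389 ± 11.3 CPM (SD, n = 3) in that order, PCNA, the replication clamp, 115 ± 7.32, 76.03 ± 5.21 and 71.8 ± 1.95 CPM, and cyclin A2 (CCNA2) 119 ± 3.03, 34.7 ± 1.33 and 46.7 ± 1.24 CPM. Between the hairpin groups the 24 markers split, with 9 higher and 10 lower with both hairpins (37.5% and 41.7%, against 31.9% and 29.1% of all genes). Their median log2 fold change at that step was -0.05, so the higher sum does not hold for each marker. In bulk RNA, fewer cells expressing a gene and less of its RNA per cell cannot be told apart. The part of the change in cycling markers in the results below was not tested. Gene counts per library ran from 15770895 to 24873291. Reads in no counted feature were 17.6% to 18.9% of unique reads in the controls, 27.7% to 28.8% with shRRM2 and 23.5% to 24.4% with both hairpins. Whether these reads lie in introns or between genes was not examined. All 10 fibroblast markers were found, with a sum of 37935 to 39109 CPM in the controls, 40940 to 41893 CPM with shRRM2 and 29474 to 30138 CPM with both hairpins, where it was lowest. Single markers went both ways. Against control, 6 were lower and 3 higher with shRRM2 (60% and 30%, against 31.8% and 29.0% of all genes). With both hairpins against control, 6 were also lower and 3 higher (against 32.4% and 30.0%). The part of these differences in the results was not tested. The 12 markers of other cell types summed to 4.94 to 7.36 CPM, with KRT5, SFTPC and CD3E at 0 throughout.

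With shRRM2 against control, most of the set was lower. Of the 37 members, 24 were lower (64.9%, against 31.8% of all 16561 genes tested) and 5 were higher (13.5%, against 29.0%), with 8 past neither threshold (edgeR quasi-likelihood test, adjusted p under 0.05). The median log2 fold change was -0.43 over the members and 0.00 over all genes. EZH2, DNMT1, UHRF1 and SUV39H1 were lower by 2-fold or more, which 3.26% of all genes were. All 4 DNA methylation genes, all 3 HP1 genes and all 6 chaperone and remodelling genes were lower. EZH1, JARID2, PHC2, KDM6A and TET2 were the 5 higher members, each by less than 1.5-fold.

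With the p16 hairpin added, members went both ways, as all genes did. Against shRRM2, 15 members were higher (40.5%, against 31.9% of all genes) and 9 were lower (24.3%, against 29.1%), shares nearer to the background than those of shRRM2 against control. The median was 0.09 over the members and 0.01 over all genes. KDM6B and TET3 were higher by 2-fold or more. These 2 of 37 members are a share near the background, 5.19% of all genes. With limma on log2 RPKM (pseudocount 0.1) the calls of SUZ12, CBX6, DNMT3B and SUV39H2 in this comparison were lost (adjusted p = 0.113, 0.232, 0.0945 and 0.296), but not when the shRRM2 c column, which does not match its count file, was left out. Against control, the double-hairpin cells had 22 lower members (59.5%, against 32.4%) and 11 higher ones (29.7%, against 30.0%), with a median of -0.17 beside 0.01 over all genes. EZH2, DNMT3B, UHRF1, SUV39H1, HELLS, CHAF1B and ASF1B were lower by 2-fold or more, as 6.0% of all genes were. KDM6B was the 1 member of 37 that was higher by 2-fold or more, as were 1092 of all 16561 genes tested. The 3 comparisons share libraries in pairs, so their values stand side by side and are not independent.

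**Figure D1:**
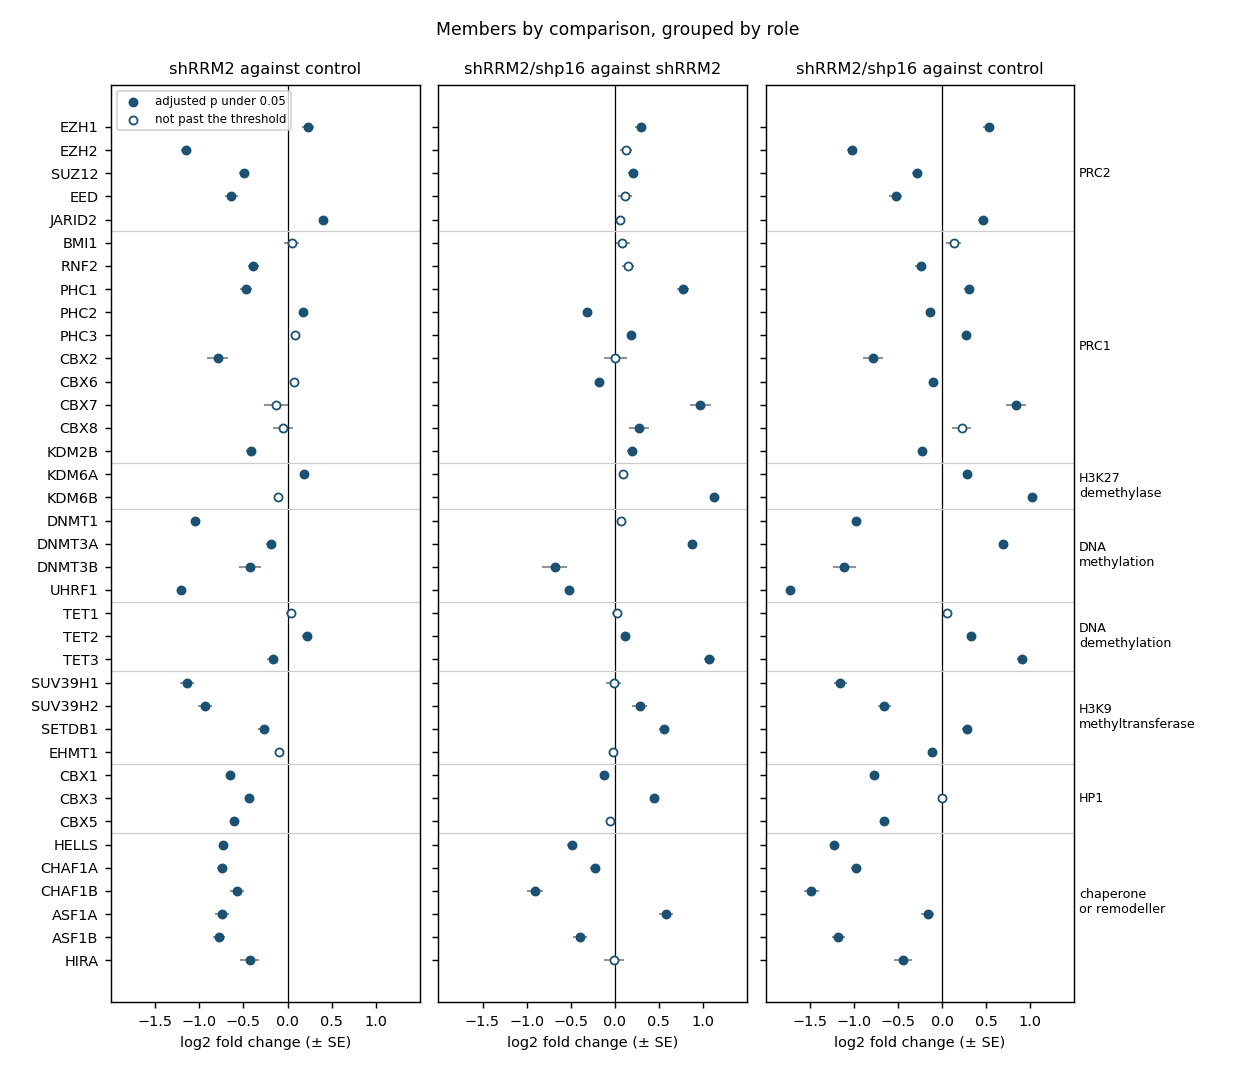
Log2 fold change (x axis, with SE as bars) of the 37 members with reads in each of the 3 comparisons, grouped by role on the y axis. Filled points passed an adjusted p of 0.05 and open points did not. In shRRM2 against control the DNA methylation, HP1 and chaperone groups lie wholly left of 0, while in shRRM2/shp16 against shRRM2 KDM6B, TET3, CBX7, DNMT3A and PHC1 lie farthest right and CHAF1B farthest left.

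To show what stands at the start of the members that fell most, promoter windows were taken from the RefSeq table (GRCh38.p14), which holds 37 of the 39 members. The first window listed for each gene runs from 250 bases before to 50 bases after the start. It was searched on both strands for the letters of an E2F site (TTT, then any 2 of C or G, then CG, then C or G). The E2F letters were in 10 of the 37 member windows (27.03%) and in 1693 of 27305 first windows of all genes (6.2%). The 2 shares were not matched for base composition, and the windows of all genes were not limited to genes with reads. For the cell cycle element CHR (TTTGAA or TTCGAA) the shares were 13.5% and 16.6%, and for CCAAT 43.2% and 35.7%. Of the 23 members with a window that were lower with shRRM2, 9 held the E2F letters (CBX3, CBX5, CHAF1A, DNMT1, EZH2, HELLS, HIRA, SUZ12 and UHRF1), as did 1 of the 5 higher members (EZH1) and 0 of the 7 that passed neither threshold. The same split was not made over all genes tested, so it has no background here, and a link between the letters and the fall was not tested.

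The stretch from 100 bases before to 30 bases after the start is printed for the 4 members that were lower by 2-fold or more with shRRM2. HELLS is printed too, chosen because it has 2 separate matches. Each is written 5′ to 3′ on the strand of its gene, with the E2F letters in capitals. UHRF1 lies at chr19:4909401-4909530 on the plus strand, EZH2 at chr7:148884262-148884391 and DNMT1 at chr19:10194924-10195053 on the minus strand, and HELLS at chr10:94545688-94545817 and SUV39H1 at chrX:48695454-48695583 on the plus strand. The last 30 bases of each of the 5 full windows were found in a GENCODE 29 transcript of the same gene, on the same strand. This held for 25 of all 37 member windows. It did not hold for EZH1 and CHAF1A, which are counted above among the windows with E2F letters. The UHRF1 run is 2 overlapping matches on opposite strands.
UHRF1: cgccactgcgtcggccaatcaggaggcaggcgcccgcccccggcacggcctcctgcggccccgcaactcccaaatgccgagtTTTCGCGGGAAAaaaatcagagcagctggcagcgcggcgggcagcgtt
EZH2: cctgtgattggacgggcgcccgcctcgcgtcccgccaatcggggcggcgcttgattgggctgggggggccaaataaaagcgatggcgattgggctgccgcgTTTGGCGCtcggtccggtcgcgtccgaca
DNMT1: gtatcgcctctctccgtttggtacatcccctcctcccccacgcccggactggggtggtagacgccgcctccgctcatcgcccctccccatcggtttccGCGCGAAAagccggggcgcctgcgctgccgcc
HELLS: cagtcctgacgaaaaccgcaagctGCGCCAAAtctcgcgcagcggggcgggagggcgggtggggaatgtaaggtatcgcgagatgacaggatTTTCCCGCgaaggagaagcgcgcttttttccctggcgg
SUV39H1: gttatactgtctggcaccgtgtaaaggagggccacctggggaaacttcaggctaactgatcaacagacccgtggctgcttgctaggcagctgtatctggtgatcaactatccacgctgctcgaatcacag
In EZH2 the match begins 2 bases into the transcript, counting the start as 1, and in DNMT1 it begins 2 bases before the start. SUV39H1, which was also lower by 2-fold or more, has none in this stretch or in its whole window. Members not printed also fell more with shRRM2 than HELLS (log2 fold change -0.73). Of these, SUV39H2, ASF1B and ASF1A (-0.94, -0.78 and -0.75) have no E2F letters in their windows. CHAF1A (-0.75) has a match, and CBX2 (-0.79) has no window. A match is a run of letters and not evidence of binding, and a window without one says only that these letters are not in it.

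PRC2 lost RNA for its core subunits with shRRM2 while its other catalytic paralog gained. EZH2, the main methyltransferase of dividing cells, was at 56.8, 52.8 and 52.1 CPM in control a, b and c, 22.3, 24.5 and 26.00 CPM with shRRM2 and 27.3, 27.2 and 25.1 CPM with both hairpins. Every hairpin library lay below every control, and the hairpin groups overlapped. The log2 fold change was -1.15 ± 0.058 (SE, edgeR adjusted p = 3.2e-21) for shRRM2 against control and -1.03 ± 0.056 (SE, edgeR adjusted p = 2.3e-20) for both hairpins against control, while between the hairpin groups it was 0.13 ± 0.065 (SE, edgeR adjusted p = 0.0911).

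EZH1, the methyltransferase paralog that is also found in resting cells, rose in both steps. It was at 21.1, 20.9 and 20.3 CPM in the controls, 23.7, 24.7 and 24.8 CPM with shRRM2 and 31.01, 30.9 and 28.00 CPM with both hairpins, and no 2 groups overlapped. Its log2 fold changes were 0.23 ± 0.066 (SE, edgeR adjusted p = 0.00221) and then 0.29 ± 0.062 (SE, edgeR adjusted p = 7.4e-05). Per length of gene, in RPKM (the CPM value per kilobase), the ratio of EZH2 to EZH1 went from 4.01 ± 0.13 in the controls to 1.53 ± 0.08 with shRRM2 and 1.37 ± 0.01 with both hairpins (SD, n = 3). This ratio is a description, since the pair was chosen with its values known.

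The scaffold and reader subunits followed EZH2 downward. SUZ12, which holds the complex together, was at 48.5, 56.1 and 49.6 CPM in the controls, 38.1, 36.2 and 34.9 CPM with shRRM2 and 41.2, 40.98 and 43.7 CPM with both hairpins. It was lower with shRRM2 with a log2 fold change of -0.49 ± 0.055 (SE, edgeR adjusted p = 2e-10) and higher again with the second hairpin, with a log2 fold change of 0.21 ± 0.057 (SE, edgeR adjusted p = 0.00181), staying below control. EED, which binds the methylated histone, was at 23.8, 24.1 and 21.1 CPM, 14.8, 15.2 and 14.5 CPM and 14.4, 17.4 and 16.2 CPM in the same order, with a log2 fold change of -0.64 ± 0.077 (SE, edgeR adjusted p = 1.5e-09) for shRRM2. The hairpin groups overlapped in EED, and their difference of 0.11 ± 0.082 (SE, edgeR adjusted p = 0.239) did not pass. JARID2, which helps bring PRC2 to its targets, went the other way, from a mean of 39.6 ± 0.684 CPM in the controls to 52.3 ± 1.39 CPM with shRRM2 and 54.4 ± 2.82 CPM with both hairpins (SD, n = 3). Its log2 fold change in shRRM2 was 0.40 ± 0.050 (SE, edgeR adjusted p = 3e-09). A pseudogene of SUZ12 took 1214 reads in all, and reads shared between the copies are not in either count.

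**Figure D2:**
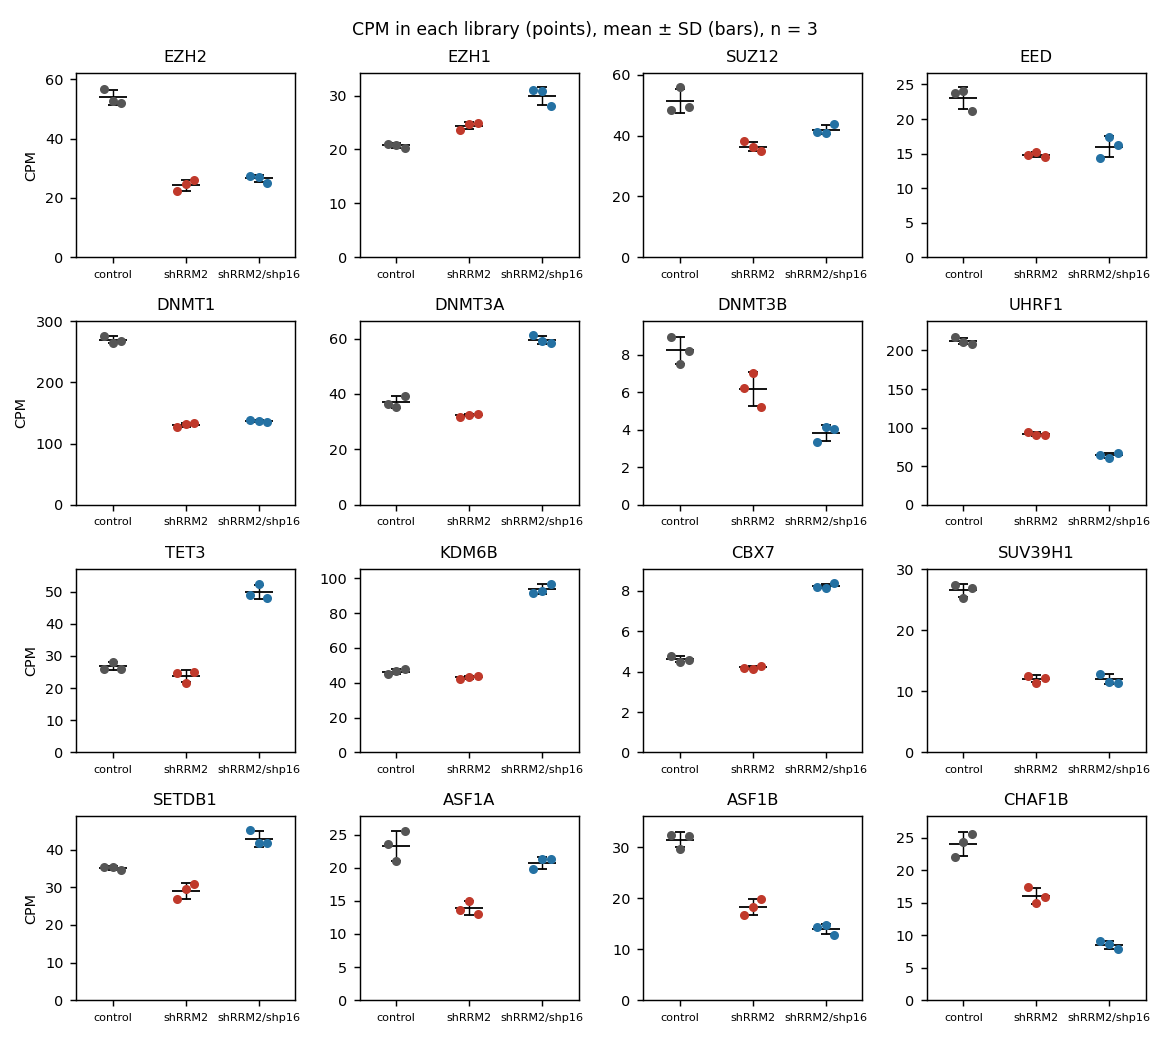
CPM (y axis, from 0) of 16 members in each of the 9 libraries (points, replicates a, b and c from left to right), with mean and SD as bars, in control, shRRM2 and shRRM2/shp16 (x axis). EZH2, DNMT1 and SUV39H1 sit low in both hairpin groups, UHRF1, DNMT3B and CHAF1B step down at each hairpin, and TET3, KDM6B and CBX7 stand apart in shRRM2/shp16.

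In PRC1, 4 of the 10 members with reads were lower with shRRM2 (40%, against 31.8% of all genes) and 1 was higher (10%, against 29.0%). When the p16 hairpin was added, 5 were higher (50%, against 31.9%) and 2 lower (20%, against 29.1%). With 10 members, the share lower with shRRM2 is near the background. Of the ubiquitin ligase core, RNF2, the catalytic subunit, was at 29.5, 30.02 and 28.8 CPM in the controls, 23.2, 22.8 and 21.4 CPM with shRRM2 and 22.9, 26.2 and 25.4 CPM with both hairpins. The controls lay above both hairpin groups, with a log2 fold change of -0.39 ± 0.064 (SE, edgeR adjusted p = 1.4e-06) for shRRM2, a call lost with limma on log2 RPKM (pseudocount 0.1, adjusted p = 0.0583). BMI1, its partner and a known repressor of CDKN2A, was at 12.7, 16.5 and 14.1 CPM, 14.7, 15.3 and 14.3 CPM and 14.6, 16.6 and 15.7 CPM. The BMI1 groups overlapped throughout, and the shRRM2 difference was 0.04 ± 0.087 (SE, edgeR adjusted p = 0.677). BMI1 shares its locus with a readthrough gene on the same strand, so reads common to both are not in its count.

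Among the polyhomeotic subunits, which let PRC1 polymerise, PHC1 moved most. It was at 23.8, 23.8 and 25.9 CPM in the controls, 16.7, 18.4 and 17.7 CPM with shRRM2 and 30.2, 29.8 and 30.3 CPM with both hairpins, so that the double-hairpin libraries were the highest of the 9. The log2 fold changes were -0.47 ± 0.068 (SE, edgeR adjusted p = 1.1e-07) and then 0.77 ± 0.066 (SE, edgeR adjusted p = 9e-14). PHC2, the most abundant of the 3, moved in the opposite sense, from 129.7 ± 3.82 CPM to 146 ± 4.13 CPM with shRRM2 and 118 ± 0.579 CPM with both hairpins (SD, n = 3), the last step with a log2 fold change of -0.31 ± 0.035 (SE, edgeR adjusted p = 2.4e-10). PHC3 was higher with both hairpins than with shRRM2, with a log2 fold change of 0.19 ± 0.041 (SE, edgeR adjusted p = 0.000110).

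The CBX readers differed from each other. CBX2 was at 9.81, 9.67 and 7.92 CPM in the controls, 5.59, 5.31 and 5.05 CPM with shRRM2 and 5.65, 5.38 and 4.94 CPM with both hairpins, lower in both hairpin groups, with a log2 fold change of -0.79 ± 0.12 (SE, edgeR adjusted p = 1.2e-07) in shRRM2. CBX7, a reader known to repress CDKN2A, was at 4.78, 4.47 and 4.59 CPM, 4.19, 4.15 and 4.30 CPM and 8.19, 8.17 and 8.38 CPM. Its shRRM2 difference was -0.13 ± 0.13 (SE, edgeR adjusted p = 0.395), and with both hairpins it was at 1.95 times its shRRM2 level, a log2 fold change of 0.97 ± 0.12 (SE, edgeR adjusted p = 2.5e-09). It rests on 66 to 164 reads per library.

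CBX6, the CBX reader of PRC1 with the highest level, fell by a smaller step, from 206 ± 6.83 CPM with shRRM2 to 182 ± 4.38 CPM with both hairpins (SD, n = 3), a log2 fold change of -0.18 ± 0.032 (SE, edgeR adjusted p = 6.6e-06). CBX8 was at 6.58, 6.04 and 6.26 CPM in the controls, 6.09, 5.77 and 6.43 CPM with shRRM2 and 7.61, 7.57 and 6.88 CPM with both hairpins. Its call against shRRM2 (log2 fold change 0.27 ± 0.11 SE, edgeR adjusted p = 0.0368) was lost with DESeq2 (adjusted p = 0.129) and when shRRM2 a or b or shRRM2/shp16 a or b was left out (0.0665, 0.120, 0.0930 and 0.0913). KDM2B, which brings a variant PRC1 to unmethylated CpG islands, had means of 46.8 ± 1.90, 35.01 ± 2.46 and 40.02 ± 0.843 CPM (SD, n = 3) in the 3 groups, lower with shRRM2, with a log2 fold change of -0.42 ± 0.054 (SE, edgeR adjusted p = 7.7e-09).

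The H3K27 demethylases take off the mark that PRC2 places. KDM6B, also called JMJD3 and known to act at CDKN2A, was at 44.9, 46.6 and 47.9 CPM in the controls, 42.2, 43.3 and 43.6 CPM with shRRM2 and 91.6, 92.9 and 96.9 CPM with both hairpins. The 3 shRRM2/shp16 libraries stood far above the other 6, at 2.18 times the shRRM2 level, a log2 fold change of 1.12 ± 0.044 (SE, edgeR adjusted p = 2.9e-25). Against control it was 1.02 ± 0.043 (SE, edgeR adjusted p = 2.5e-24), and shRRM2 against control was -0.11 ± 0.049 (SE, edgeR adjusted p = 0.0562). KDM6A, the X-linked paralog, had means of 37.8 ± 1.75, 43.04 ± 1.90 and 45.9 ± 2.21 CPM (SD, n = 3), higher than control, with a log2 fold change of 0.19 ± 0.054 (SE, edgeR adjusted p = 0.00230) with shRRM2.

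The maintenance arm of DNA methylation fell with shRRM2, DNMT1 to 48.4% and UHRF1 to 43.2% of control. DNMT1, the copying enzyme, was at 276, 265 and 268 CPM in control a, b and c, 127, 132 and 133 CPM with shRRM2 and 139, 137 and 135 CPM with both hairpins. The log2 fold change was -1.05 ± 0.032 (SE, edgeR adjusted p = 4.2e-29) for shRRM2 and -0.98 ± 0.032 (SE, edgeR adjusted p = 1.2e-28) for both hairpins, and 0.07 ± 0.034 (SE, edgeR adjusted p = 0.0748) between the hairpin groups. UHRF1, which directs DNMT1 to new DNA, was at 217, 211 and 208 CPM, 94.4, 91.02 and 90.2 CPM and 64.8, 60.8 and 66.8 CPM. It fell with shRRM2, with a log2 fold change of -1.21 ± 0.036 (SE, edgeR adjusted p = 1.5e-29) and was lower again with the second hairpin, with a log2 fold change of -0.52 ± 0.041 (SE, edgeR adjusted p = 7.3e-15), which left the 2 hairpin groups apart. In the double-hairpin cells UHRF1 was at 0.302 times its control level, the lowest ratio of the 37 members.

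The enzymes that set new methylation parted from each other. DNMT3A was at 36.2, 35.3 and 39.4 CPM in the controls, 31.9, 32.4 and 32.8 CPM with shRRM2 and 61.2, 59.00 and 58.4 CPM with both hairpins. The fall with shRRM2 was -0.19 ± 0.055 (SE, edgeR adjusted p = 0.00277), and the rise with the second hairpin was 0.88 ± 0.051 (SE, edgeR adjusted p = 3e-19), taking it above control. DNMT3B was at 8.97, 7.49 and 8.22 CPM, 6.22, 7.04 and 5.22 CPM and 3.33, 4.13 and 4.03 CPM, lower at each step, with log2 fold changes of -0.43 ± 0.12 (SE, edgeR adjusted p = 0.00218) and -0.68 ± 0.14 (SE, edgeR adjusted p = 4.7e-05). Its counts are small, 63 to 214 reads per library. Both shRRM2 calls, for DNMT3A and DNMT3B, were lost with limma on log2 RPKM with a pseudocount of 0.1 (adjusted p = 0.209 and 0.102). Per length, the ratio of DNMT1 to DNMT3A was 8.97 ± 0.55 in the controls, 4.95 ± 0.07 with shRRM2 and 2.82 ± 0.03 with both hairpins, and that of DNMT3B to DNMT3A was 0.578 ± 0.056, 0.495 ± 0.076 and 0.167 ± 0.023 (SD, n = 3).

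Of the TET enzymes, TET3 stood out in the double-hairpin cells. It was at 25.9, 28.2 and 26.1 CPM in the controls, 24.8, 21.6 and 24.96 CPM with shRRM2 and 49.1, 52.4 and 48.2 CPM with both hairpins. The 3 double-hairpin libraries were far above the other 6, with a log2 fold change of 1.07 ± 0.060 (SE, edgeR adjusted p = 5.8e-20) against shRRM2 and 0.90 ± 0.057 (SE, edgeR adjusted p = 3.3e-18) against control. Its smaller fall with shRRM2 (log2 fold change -0.17 ± 0.065 SE, edgeR adjusted p = 0.0240) was lost with DESeq2 (adjusted p = 0.0778), without control b (0.121) and without shRRM2 b (0.239, where the value was -0.10). TET2 rose with shRRM2, with a log2 fold change of 0.21 ± 0.047 (SE, edgeR adjusted p = 0.000120). The further rise with the second hairpin (log2 fold change 0.11 ± 0.046 SE, edgeR adjusted p = 0.0292) was lost with DESeq2 (adjusted p = 0.103) and without shRRM2 a or c or shRRM2/shp16 b or c (0.0595 to 0.0993), and the authors' deposited table has it at -0.18. TET1 was between 32.4 and 35.4 CPM in all 9 libraries, and none of its 3 comparisons passed (edgeR adjusted p = 0.552, 0.776 and 0.348).

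**Figure D3:**
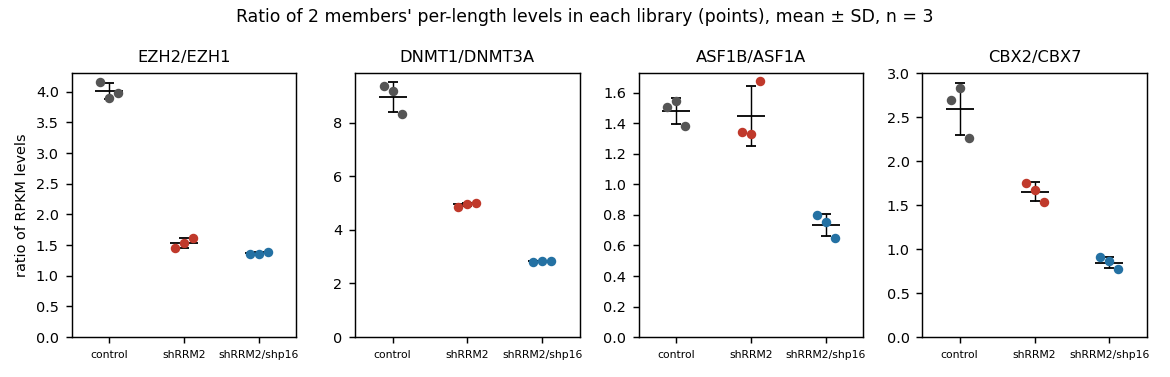
Ratio of the RPKM levels of 2 members (y axis, from 0) in each library (points), with mean and SD as bars, by group (x axis). EZH2 to EZH1 falls mainly at the shRRM2 step (4.01 to 1.53), ASF1B to ASF1A mainly at the shRRM2/shp16 step (1.45 to 0.734), and DNMT1 to DNMT3A and CBX2 to CBX7 at both.

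The SUV39 enzymes, which trimethylate H3K9 in constitutive heterochromatin, fell together with shRRM2. SUV39H1 was at 27.3, 25.3 and 26.9 CPM in the controls, 12.6, 11.4 and 12.2 CPM with shRRM2 and 12.9, 11.6 and 11.4 CPM with both hairpins, a log2 fold change of -1.14 ± 0.075 (SE, edgeR adjusted p = 3.3e-17). The hairpin groups overlapped, and their difference was -0.01 ± 0.087 (SE, edgeR adjusted p = 0.918). SUV39H2 was at 20.4, 23.1 and 21.03 CPM, 11.7, 11.2 and 10.7 CPM and 13.05, 14.1 and 13.7 CPM, lower with shRRM2, with a log2 fold change of -0.94 ± 0.080 (SE, edgeR adjusted p = 9.4e-14) and partly higher again with both hairpins, with a log2 fold change of 0.28 ± 0.086 (SE, edgeR adjusted p = 0.00457).

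SETDB1, the H3K9 methyltransferase that silences retroelements, was at 35.5, 35.5 and 34.6 CPM in the controls, 26.9, 29.5 and 30.99 CPM with shRRM2 and 45.3, 41.7 and 41.7 CPM with both hairpins. It was lowest with shRRM2 (log2 fold change -0.27 ± 0.059 SE, edgeR adjusted p = 0.000100) and highest with both hairpins, 1.47 times the shRRM2 level (log2 fold change 0.56 ± 0.057 SE, edgeR adjusted p = 1.8e-11). It overlaps CERS2 on the other strand, as CBX3 does HNRNPA2B1, ASF1A MCM9, SUV39H2 DCLRE1C, PHC1 M6PR, CHAF1A UBXN6 and KDM2B RNF34. The strand setting of the counts is not stated, and reads from such pairs may not be told apart. EHMT1, which makes mono- and dimethyl H3K9, had means of 75.2 ± 3.07, 70.6 ± 3.65 and 69.4 ± 0.435 CPM (SD, n = 3). Its call against control with both hairpins (log2 fold change -0.12 ± 0.043 SE, edgeR adjusted p = 0.0166) was lost without control a (adjusted p = 0.169, value -0.08) and without shRRM2/shp16 b or c (0.076 and 0.0571).

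The HP1 proteins bind methylated H3K9 and compact chromatin. CBX5 (HP1 alpha), the member with the highest level per length (49.6 ± 2.21 RPKM in the controls, SD, n = 3), was at 708, 769 and 762 CPM in the controls, 494, 472 and 504 CPM with shRRM2 and 459, 472 and 487 CPM with both hairpins. Both hairpin groups lay below the controls, with -0.61 ± 0.030 (SE, edgeR adjusted p = 1.5e-21) for shRRM2. CBX1 (HP1 beta) was at 125, 122 and 123 CPM, 72.4, 80.2 and 83.04 CPM and 73.9, 70.7 and 72.6 CPM, lower with shRRM2, with a log2 fold change of -0.65 ± 0.041 (SE, edgeR adjusted p = 6.4e-18). A further CBX1 step with the second hairpin (log2 fold change -0.12 ± 0.044 SE, edgeR adjusted p = 0.0158) overlapped between groups and was lost without shRRM2 b or c or shRRM2/shp16 b (adjusted p = 0.0648, 0.153 and 0.0967), with a value of -0.08 without shRRM2 c.

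CBX3 (HP1 gamma), which is also found over transcribed genes, was back near its control mean with both hairpins. Its means were 132 ± 7.63 CPM in the controls, 97.6 ± 4.78 CPM with shRRM2 and 132 ± 6.22 CPM with both hairpins (SD, n = 3), with log2 fold changes of -0.44 ± 0.042 (SE, edgeR adjusted p = 2.5e-12) and 0.44 ± 0.042 (SE, edgeR adjusted p = 2e-12). The difference between both hairpins and control was 0.00 ± 0.040 (SE, edgeR adjusted p = 0.987), with a 95% interval of -0.0774 to 0.0789. CBX3 and CBX1 have 9 and 5 named pseudogenes, and reads that fit several copies are not counted.

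Chromatin assembly genes were all lower with shRRM2, and 4 of the 6 were lower again with the second hairpin (66.7%, against 29.1% of all genes). The 19 further chaperone genes listed outside the set did not follow at that step, with 3 lower and 11 higher. HELLS, a remodeller needed for DNA methylation of repeats, was at 88.8, 97.3 and 91.2 CPM in the controls, 59.1, 53.9 and 54.00 CPM with shRRM2 and 37.1, 41.8 and 39.8 CPM with both hairpins. No groups overlapped, and the steps were -0.73 ± 0.047 (SE, edgeR adjusted p = 1.2e-17) and -0.49 ± 0.053 (SE, edgeR adjusted p = 5.9e-11). CHAF1A and CHAF1B are the large and middle subunits of CAF-1, which loads H3 and H4 on newly made DNA. CHAF1A was at 61.7, 57.5 and 57.01 CPM, 31.9, 38.1 and 34.9 CPM and 30.1, 29.03 and 30.9 CPM, with -0.75 ± 0.054 (SE, edgeR adjusted p = 6.4e-16) at the first step and -0.23 ± 0.060 (SE, edgeR adjusted p = 0.00120) at the second. CHAF1B was at 22.00, 24.4 and 25.6 CPM, 17.4, 14.9 and 15.8 CPM and 9.09, 8.61 and 7.90 CPM, with -0.57 ± 0.077 (SE, edgeR adjusted p = 1.7e-08) and then -0.91 ± 0.092 (SE, edgeR adjusted p = 1.3e-11), the largest fall of the second step among the members. The second CHAF1A step was lost with limma on log2 RPKM with a pseudocount of 0.1 (adjusted p = 0.0656).

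ASF1A and ASF1B hand histones to the other chaperones, ASF1B being the form linked to dividing cells and ASF1A the one that works with HIRA. ASF1B was at 32.5, 29.7 and 32.3 CPM in the controls, 16.8, 18.3 and 19.9 CPM with shRRM2 and 14.4, 14.7 and 12.7 CPM with both hairpins, stepping down with log2 fold changes of -0.78 ± 0.070 (SE, edgeR adjusted p = 4.4e-13) and -0.40 ± 0.080 (SE, edgeR adjusted p = 4e-05). ASF1A was at 23.6, 21.02 and 25.5 CPM, 13.6, 15.1 and 12.97 CPM and 19.8, 21.3 and 21.3 CPM, lower with shRRM2, with a log2 fold change of -0.75 ± 0.079 (SE, edgeR adjusted p = 4.4e-11) and then higher, with 0.58 ± 0.080 (SE, edgeR adjusted p = 3.1e-08). With both hairpins ASF1A overlapped the controls. That remaining difference (log2 fold change -0.17 ± 0.071 SE, edgeR adjusted p = 0.0412) was lost with DESeq2 (adjusted p = 0.113) and without control a or c, shRRM2 a or any shRRM2/shp16 library (0.0511 to 0.224). Per length, ASF1B stood at 1.48 ± 0.08 times ASF1A in the controls, 1.45 ± 0.20 with shRRM2 and 0.734 ± 0.074 with both hairpins (SD, n = 3).

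HIRA, which deposits the replication-independent histone H3.3 and is known for its place in senescence-associated heterochromatin foci, was at 10.98, 9.28 and 9.77 CPM in the controls, 7.30, 7.61 and 7.52 CPM with shRRM2 and 6.92, 8.46 and 6.77 CPM with both hairpins. It was lower in both hairpin groups, with a log2 fold change of -0.43 ± 0.11 (SE, edgeR adjusted p = 0.000560) in shRRM2, a call lost with limma on log2 RPKM with a pseudocount of 0.1 (adjusted p = 0.0779). The hairpin groups overlapped. HIRA shares same-strand positions with C22orf39, as HELLS does with TBC1D12, CHAF1B with MORC3 and DNMT1 with S1PR2, and reads over both genes were left out as ambiguous.

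Levels per length put the set in order. In the controls CBX5 came first at 49.6 ± 2.21 RPKM, followed by UHRF1 at 41.2 ± 0.872 and CBX1 at 39.99 ± 0.574 RPKM, whose ranges of mean ± SD overlapped. CBX3 at 28.5 ± 1.64 and DNMT1 at 27.5 ± 0.589 RPKM likewise did not differ beyond their spread. The lowest were CBX7 at 0.618 ± 0.0207, CBX8 at 1.51 ± 0.0655, CBX2 at 1.61 ± 0.185 and DNMT3B at 1.78 ± 0.160 RPKM (SD, n = 3). With both hairpins UHRF1 had fallen to 12.5 ± 0.589 RPKM, beside DNMT1 at 13.99 ± 0.183 and KDM6B at 12.9 ± 0.380 RPKM.

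Other genes of the same pathways were read from lists of genes outside the set. Of 30 further Polycomb genes tested, 13 were lower and 5 higher with shRRM2 (43.3% and 16.7%, against 31.8% and 29.0% of all genes). When the p16 hairpin was added, 3 were lower and 15 higher (10% and 50%, against 29.1% and 31.9%). PHF19, a PRC2 accessory protein, was at 100.1, 93.5 and 95.6 CPM in the controls, 40.4, 40.1 and 37.8 CPM with shRRM2 and 48.5, 50.9 and 44.1 CPM with both hairpins, a log2 fold change of -1.29 ± 0.049 (SE, edgeR adjusted p = 7.2e-26) for shRRM2. ASXL3, of the H2A deubiquitinase complex, was at 2.35, 2.85 and 2.09 CPM, 1.46, 1.90 and 1.66 CPM and 7.92, 8.12 and 8.06 CPM, higher with both hairpins than with shRRM2, with a log2 fold change of 2.25 ± 0.16 (SE, edgeR adjusted p = 1.4e-16).

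Of 16 further DNA methylation genes tested out of 20 listed, 10 were lower and 2 higher with shRRM2 (62.5% and 12.5%, against 31.8% and 29.0% of all genes). With the second hairpin 7 were lower and 5 higher (43.8% and 31.2%, against 29.1% and 31.9%), the share higher being at the background. CDCA7, which works with HELLS, was at 21.8, 23.5 and 22.1 CPM in the controls, 11.8, 8.54 and 9.41 CPM with shRRM2 and 6.13, 7.47 and 6.83 CPM with both hairpins, falling, with a log2 fold change of -1.18 ± 0.090 (SE, edgeR adjusted p = 2.9e-15) in shRRM2 and standing at -1.72 ± 0.094 (SE, edgeR adjusted p = 2.5e-20) against control with both. UHRF2, the paralog of UHRF1, had means of 87.3 ± 0.488, 75.3 ± 3.60 and 56.4 ± 1.16 CPM (SD, n = 3).

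Among 28 further H3K9 and heterochromatin genes, 12 were lower and 6 higher with shRRM2 (42.9% and 21.4%, against 31.8% and 29.0% of all genes), shares not far from the background. When the p16 hairpin was added, 3 were lower and 16 higher (10.7% and 57.1%, against 29.1% and 31.9%). LBR, which tethers heterochromatin to the nuclear envelope, was at 67.9, 76.4 and 75.4 CPM in the controls, 30.6, 29.9 and 27.1 CPM with shRRM2 and 36.02, 42.02 and 38.5 CPM with both hairpins, with -1.32 ± 0.057 (SE, edgeR adjusted p = 1.1e-23) for shRRM2. KDM7A, a demethylase of H3K9 and H3K27, was at 9.68, 10.3 and 12.7 CPM, 10.5, 12.1 and 13.1 CPM and 25.8, 25.8 and 26.3 CPM, higher with both hairpins than with shRRM2, with a log2 fold change of 1.12 ± 0.083 (SE, edgeR adjusted p = 9.5e-16).

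Of 19 further histone chaperone genes, 13 were lower and 2 higher with shRRM2 (68.4% and 10.5%, against 31.8% and 29.0% of all genes), and 3 were lower and 11 higher when the p16 hairpin was added (15.8% and 57.9%, against 29.1% and 31.9%). The centromere genes OIP5, HJURP and MIS18A, which load CENP-A, fell by log2 fold changes of -1.997, -1.42 and -1.27, and TONSL, a reader of newly placed histones, by -1.16. OIP5 had 8.38, 8.72 and 9.12 CPM in the controls, 2.16, 2.60 and 1.78 CPM with shRRM2 and 2.91, 3.98 and 4.30 CPM with both hairpins, so that the second hairpin left it between the other groups. With both hairpins against control, HJURP, TONSL, OIP5 and MMS22L were at -1.44, -1.25, -1.22 and -1.05. A list of 26 germline genes known to be silenced by DNA methylation had 21 members below the filter, and its sum was 5.72 to 6.65 CPM in the controls, 6.94 to 8.76 CPM with shRRM2 and 7.08 to 8.22 CPM with both hairpins. Of the 5 tested, 3 were higher and 0 lower with shRRM2 (60% and 0%, against 29.0% and 31.8% of all genes). When the p16 hairpin was added, 1 was higher and 1 lower (20% each, against 31.9% and 29.1%). With so few genes at such low levels, these shares are a description.

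**Figure D4:**
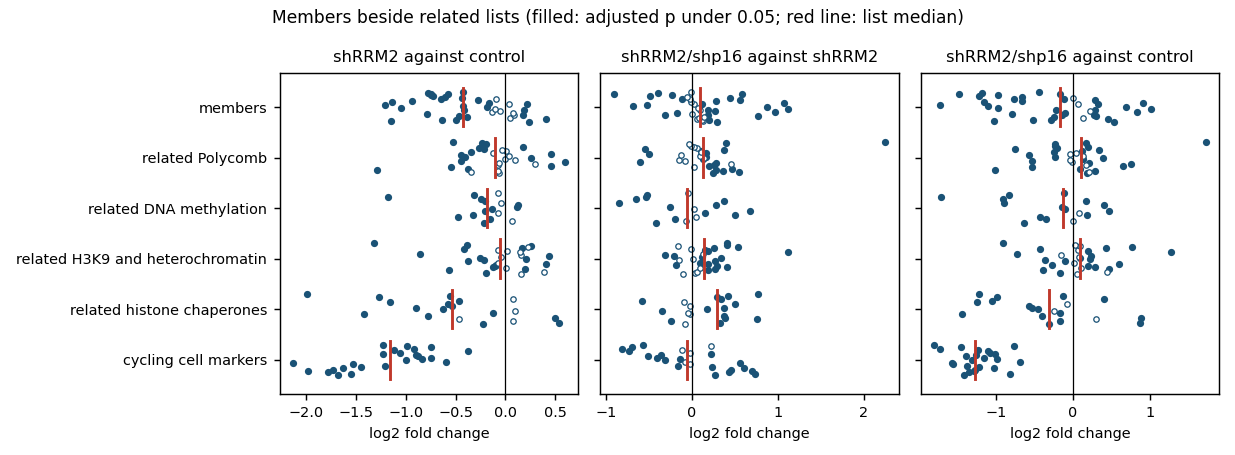
Log2 fold change (x axis) of each tested gene of the set and of 5 other lists (y axis) in the 3 comparisons, filled where an adjusted p of 0.05 was passed, with the list median as a red line. The medians in shRRM2 against control are -0.43 for the set, -0.54 for the histone chaperones and -1.16 for the cycling cell markers.

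The authors' deposited table gives its own test of shRRM2/shp16 against shRRM2. Significance is marked there, in the authors' deposited table, for 9 of the 39 members and for 4991 of all 64253 gene identifiers. These 2 counts do not compare like with like. In the count test 37 of the 39 members passed the filter on low counts, but only 16561 of all identifiers did. Of the marked members, EZH1, DNMT3A, TET3, SUV39H2 and ASF1A are higher and DNMT3B, UHRF1, HELLS and CHAF1B lower. All 9 had the same direction and passed the threshold in the count test. Of the 24 members that passed in the count test, TET2 alone has the opposite sign in the authors' deposited table (log2 fold change -0.18, q = 0.620). PHC3 and KDM2B, also higher in the count test, are at 0.016 and 0.024 there, in the authors' deposited table (q = 0.970 and 0.949). CBX1, lower in the count test, is at -0.049 in the authors' deposited table (q = 0.8175). KDM6B, with a log2 fold change of 1.001 and q = 0.112, is not marked in the authors' deposited table, and PHC1 and CBX7 are not marked either (q = 0.104 and 0.140).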

How the data were processed

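The data are 9 RNA sequencing libraries of IMR90 cells, prepared with a stranded kit after ribosomal RNA depletion, per the labels' protocols. The authors deposited unnormalized counts of reads in Ensembl genes, 1 file a library, laid out as HTSeq writes them. The submitters' processing notes name TopHat2 2.0.9, Cufflinks 2.0.2, Cuffdiff and GRCh38. The strand setting is not given in the sources used here. Reads that fit several places made up 40.4% to 44.9% of the tallied entries and ambiguous reads 3.74% to 6.02% of unique reads; they are in no gene's count. The authors' deposited table holds log2 values per library. It also holds the authors' test of the double-hairpin group against shRRM2, as a log2 fold change, a p-value and a q-value. Calculated back from the counts, the log2 columns are log2(x + 1) with x the RPKM divided by 1000, and 8 of the 9 match the counts. The column of shRRM2 c matched for 0.767% of genes. Columns left without a matching sample numbered 0.

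Counts were fitted with edgeR 4.0.16 in R 4.3.3 (filterByExpr, TMM, glmQLFit, glmQLFTest), with all 9 libraries and 1 coefficient for each group, which leaves 6 residual degrees of freedom. Genes tested were 16561, holding 99.8% of the gene counts; p-values were two-sided and adjusted by Benjamini-Hochberg over them in each comparison, with a threshold of 0.05. Standard errors are the log2 fold change divided by the square root of F. CPM uses TMM-scaled library sizes, and RPKM the gene lengths implied by the authors' table. The pipeline was tested on simulated data. Alternatives were RLE size factors, DESeq2 1.42.0, other filters, only the 6 libraries compared, a replicate block, each library left out, and limma 3.58.1 on log2 RPKM.

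The members, lists, level ratios and motifs were chosen with earlier results of these data known. Named were RRM2, CDKN2A and all members. Values per library were given for members past the threshold by 0.58 or more on the log2 scale and for fixed core genes. Of each related list, at most the 4 largest changes of 2-fold or more without overlap of groups were named in each comparison; UHRF2 was added after its values were seen.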

Additional observations from a re-analysis of the deposited data

How the results depend on the processing

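Of 86 member calls over the 3 comparisons, each kept its direction under every alternative run. With RLE size factors all 86 kept their side of the threshold, DESeq2 lost 4, testing without a filter 2, a minimum of 10 counts in each library 2 and fitting only the 6 libraries compared 1. Limma lost 23 calls on the deposited log2 values, 19 on log2 RPKM with a pseudocount of 0.1, and 14 with that pseudocount and the 8 matching columns, an alternative chosen after seeing the data. Counts of members moved by over 1.5 times only with limma: on the deposited log2 values, 3 were higher with shRRM2 against control, 5 lower with shRRM2/shp16 against shRRM2 and 14 lower with shRRM2/shp16 against control, and with the pseudocount 5 were lower with shRRM2/shp16 against shRRM2. With the pseudocount, further calls lost in shRRM2/shp16 against control were SUZ12, RNF2, PHC2, CBX6, KDM2B and EHMT1. The log2 RPKM given to limma carried no TMM scaling. In that comparison the median log2 fold change was 0.128 over its 22992 genes, beside 0.015 over the 16561 genes of the main fit. The cause was not tested. Leaving out 1 library at a time gave 5 to 6 higher and 23 to 25 lower for shRRM2 against control, 13 to 17 and 8 to 9 for shRRM2/shp16 against shRRM2, and 11 to 12 and 20 to 22 for shRRM2/shp16 against control.

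With a replicate block the counts were 6 higher and 25 lower, 15 and 9, and 11 and 22 in the same order. Libraries with the same letter share only that letter, with correlations of deviations from -0.0198 to 0.0486.

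Signs turned only in comparisons that passed no threshold. With 1 library left out, BMI1 in shRRM2 against control ran from -0.0497 to 0.152, and CBX3 in shRRM2/shp16 against control from -0.0276 to 0.0542. In shRRM2/shp16 against shRRM2 the ranges were -0.0343 to 0.0591 for CBX2, -4.54e-05 to 0.0501 for TET1, -0.0653 to 0.0244 for SUV39H1, -0.0512 to 0.0198 for EHMT1 and -0.122 to 0.0478 for HIRA. Without a filter, TET1 was -0.00138 in shRRM2 against control, CBX3 -0.0223 in shRRM2/shp16 against control, and SUV39H1 0.00573 and HIRA 0.00264 in shRRM2/shp16 against shRRM2. In that last comparison CBX2 was -0.00422 with RLE, -0.00508 with DESeq2, -0.00419 with a minimum of 10 counts and -0.00243 with 6 libraries. On the 8 matching columns SUV39H1 was 0.0497, EHMT1 0.0244, CBX5 0.0253 and HIRA 0.0350, and EHMT1 was 0.000237 on the deposited log2 values and 0.0521 with the pseudocount. Depth limits CBX7, CBX8, CBX2, DNMT3B and HIRA most, since they had the fewest reads.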
